A study of Homo sapiens with 12 samples.

Results

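The comparison is between libraries of TK6, an established line of human B lymphoblasts, that held much or little RNA of RNR2, the mitochondrial gene of the 16S ribosomal RNA (rRNA). Cells had been incubated for 24 h with 3-methylcholanthrene, a polycyclic aromatic hydrocarbon, at 0 µg/mL (control), 0.0004 µg/mL (low), 0.04 µg/mL (medium) or 4 µg/mL (high), with 3 libraries per concentration. Polyadenylated RNA had been captured before sequencing, and all libraries came from the untransformed counts of 1 deposited table. RNR2 counts were expressed as percent of all gene counts of a library, and 7 of the 12 libraries were chosen by that value alone. The 4 rich libraries held 4% or more (medium replicate 1, high replicates 1 and 3, low replicate 3) and the 3 poor libraries under 2% (control replicate 3, high replicate 2, low replicate 2), which left 5 libraries between them. These classes are a library axis defined from the data and are not treatment groups. No control library was rich and no medium library was poor, while low and high had libraries in both classes. The 16S share was also tied to the replicate number: replicates 1 held 3.39% to 5.52%, all above replicates 2 with 1.45% to 2.73%, while replicates 3 ranged from 1.43% to 7.99%. What the numbers stand for beyond naming libraries is not said in the labels, so any step shared by replicates of a number cannot be told apart from the class for replicates 1 and 2. Nothing in the labels says that replicates were separate cultures, so p-values measure no more than how far these libraries spread, which can be technical.

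The mitochondrial genome is transcribed as long polycistronic RNAs that are cut into 2 rRNAs, 13 mRNAs and 22 tRNAs. Mitochondrial rRNAs carry at most a short oligo(A) tail, and many nuclear RNAs lack a poly(A) tail altogether: transcripts of RNA polymerase III, small nuclear and small nucleolar RNAs, and the mRNAs of replication-dependent histones, which end in a stem-loop. Capture on oligo(dT) is meant to leave such RNAs behind, so they enter a library of polyadenylated RNA only in small amounts.

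By the rule, 16S rRNA took 1.43% of all counts in control replicate 3, 1.45% in high replicate 2 and 1.46% in low replicate 2. The rich libraries held 4.80% in medium replicate 1, 5.52% in high replicate 1, 7.96% in high replicate 3 and 7.99% in low replicate 3. Nearest to the limits among the libraries between were control replicate 2 with 2.18% and control replicate 1 with 3.84%. These values made the classes and were not tested. Library totals ran from 9163368 to 14756863 counts in the rich and from 9397492 to 19841387 in the poor libraries and overlapped.

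The mitochondrial rRNAs and 2 small nuclear-encoded RNAs are shown with their longest internal runs of A, on which oligo(dT) could anneal, because RNR2 made the classes and the others were higher in rich libraries. Each line gives the 60 bases around the longest run of A, in capitals. All are 5′ to 3′ in the sense of the RNA, from GENCODE release 29 transcripts on GRCh38.
RNR2 (chrM:2430-2489, plus strand): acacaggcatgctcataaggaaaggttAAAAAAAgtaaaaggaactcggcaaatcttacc
RNR1 (chrM:966-1025, plus strand): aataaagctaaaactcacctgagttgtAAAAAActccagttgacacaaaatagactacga
RN7SK (chr6:52995816-52995875, plus strand): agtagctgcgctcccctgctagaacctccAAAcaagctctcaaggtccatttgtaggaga
RMRP (chr9:35657918-35657977, minus strand): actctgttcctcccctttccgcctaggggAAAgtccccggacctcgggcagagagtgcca
The longest run was 7 bases in the 1559-base 16S rRNA, 6 in the 954-base 12S rRNA, 3 in RN7SK and 3 in RMRP. The part of any such run in capture was not tested.

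The other mitochondrial rRNA, the 12S RNA of RNR1, followed 16S. It took 0.194% of all counts in control replicate 3, 0.199% in high replicate 2 and 0.171% in low replicate 2. In the rich libraries it took 0.619% in medium replicate 1, 0.685% in high replicate 1, 0.925% in high replicate 3 and 1.04% in low replicate 3. Every rich library was thus above every poor one, and the 5 between held 0.250% to 0.467%. RNR1 was 4.40-fold higher in rich than in poor libraries (log2 2.14, SE 0.21, edgeR adjusted p = 1.38e-05). Over all 12 libraries the 12S share followed the 16S share with Pearson's r = 0.994 and Spearman's rho = 0.972 (permutation p = 1e-05 for both, the smallest that 100000 permutations can give, and adjusted p = 3e-05 and 7e-05 over 20 measures). Without the 2 libraries farthest from the median 16S share, low replicate 3 and high replicate 3, r was 0.994. The ratio of 12S to 16S counts was 0.125 ± 0.006 in rich (SD, n = 4) and 0.130 ± 0.011 in poor libraries (SD, n = 3) and overlapped; since the rule used the 16S counts, this ratio is a description.

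**Figure D1:**
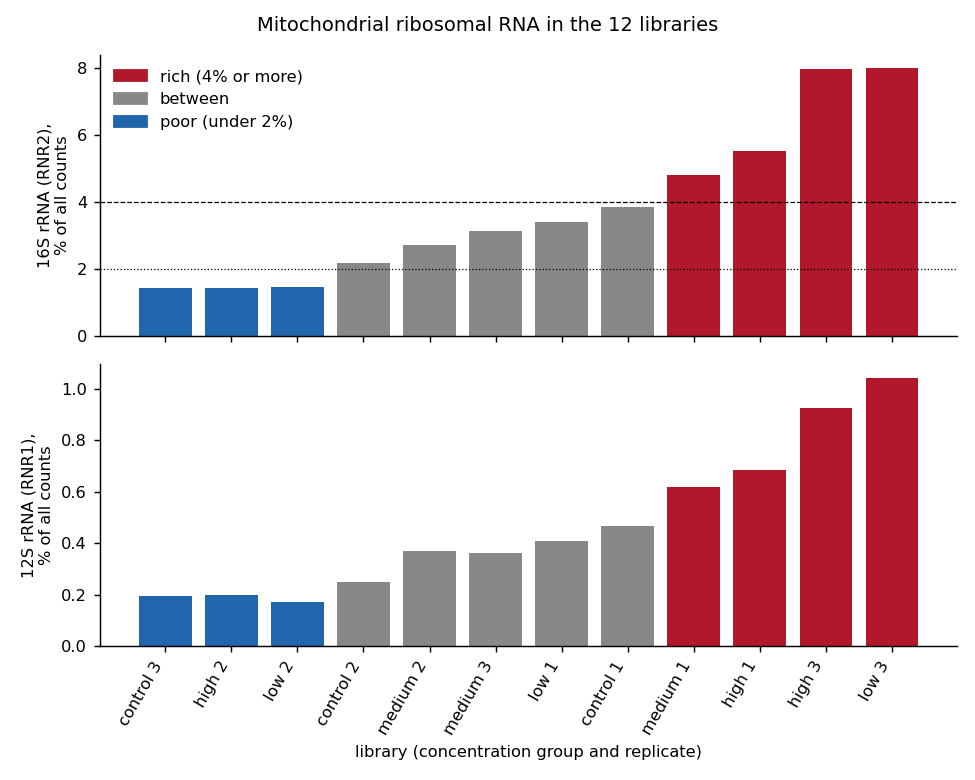
16S rRNA (top) and 12S rRNA (bottom) as percent of all counts in each of the 12 libraries, ordered by the 16S share; colours give the class, and lines in the top panel mark the limits of 4% and 2%. The 12S share runs from 0.171% to 0.199% in poor and from 0.619% to 1.04% in rich libraries.

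The mRNAs of the same genome did not share this pattern. Together the 13 mRNAs took 13.8% ± 0.33 of all counts in rich (SD, n = 4) and 15.2% ± 1.62 in poor libraries (SD, n = 3), and the ranges overlapped (two-sided exact permutation p = 0.114, with 0.0286 the smallest p that 4 against 3 libraries allow). Of these mRNAs, all subunits of the respiratory chain or of ATP synthase, 2 were higher, 3 were lower and 8 did not pass, against 23.5% higher and 22.7% lower among all 12029 genes tested, so these counts are near the background. ND4, a subunit of complex I, had 26187 CPM (counts per 1000000 counts of the library) in control replicate 3, 27570 in high replicate 2 and 20553 in low replicate 2. Its rich libraries had 17555 in medium replicate 1, 17969 in high replicate 1, 15859 in high replicate 3 and 17079 in low replicate 3. All 4 lay under the lowest poor library (log2 -0.53, SE 0.11, adjusted p = 0.00164). ND5, another complex I subunit, went the other way with a log2 difference of 0.49 (SE 0.13, adjusted p = 0.00643). ND3 was higher too (log2 0.43), although without low replicate 2 its adjusted p was 0.0667. ATP8 was lower (log2 -0.70, SE 0.27, adjusted p = 0.0457), but its classes overlapped, with 146 to 243 CPM in rich and 165 to 506 CPM in poor libraries. ND4L was lower too (log2 -0.44), although without high replicate 2 its adjusted p was 0.146. ND6, the 1 mRNA of the light strand, had a log2 difference of 0.27 and ND1, COX1 and CYTB had -0.10, -0.09 and -0.06, none past the threshold. The tRNA gene TRNP, 1 of 22 mitochondrial tRNA rows and the only one with enough counts to test, was higher (log2 0.55, adjusted p = 0.00215).

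All other genes were then compared, 12029 of which had enough counts to test. Of these genes 2828 (23.5%) were higher in rich libraries and 2734 (22.7%) lower, so 46.2% were called at an adjusted p below 0.05 in edgeR's quasi-likelihood test. The rich and poor libraries did not overlap for 49.4% of all genes tested. Most differences were small: the median log2 difference of all genes was 0.01, the middle 50% lay between -0.31 and 0.36, and 704 genes were called higher and 287 called lower by more than 2-fold. The first principal component of 12014 nuclear genes held 37.3% of their variance, against 7.45% for the second. Its score ran from -37.9 to -33.7 in the poor, from -24.4 to 6.44 in the libraries between, and from 17.9 to 51.0 in the rich libraries, with r = 0.979 and rho = 0.979 against the 16S share over 12 libraries (permutation p = 1e-05 for both, adjusted p = 3e-05 and 7e-05), and r = 0.984 without low replicate 3 and high replicate 3. With so large a share of genes called, the counts given below for gene lists are set against these percentages. The lists were chosen with earlier results of these data known.

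RNAs made by RNA polymerase III differed most among the gene lists examined. Of 16 listed, 4 had enough counts to test, and all 4 were higher in rich libraries, with a median log2 difference of 3.67. No member was lower at an unadjusted p under 0.05 or by DESeq2 or limma voom (0 of 4 each), and the other members had few or no counts. RN7SK, the scaffold of the complex that holds the elongation factor P-TEFb inactive, had 7.18 CPM in control replicate 3, 4.89 in high replicate 2 and 5.11 in low replicate 2. In the rich libraries it had 47.5 in medium replicate 1, 60.4 in high replicate 1, 63.9 in high replicate 3 and 90.0 in low replicate 3. The 5 libraries between fell between the classes, at 14.8 to 26.5 CPM. RN7SK was 11.5-fold higher in rich libraries (log2 3.53, SE 0.26, adjusted p = 7.34e-06).

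RN7SL1, the RNA of the signal recognition particle that brings ribosomes to the endoplasmic reticulum, had 1.245 to 2.13 CPM in poor and 17.6 to 22.9 CPM in rich libraries (log2 3.82, SE 0.32). RMRP, the RNA of a ribonuclease that processes precursor rRNA, had 1.68, 0.0504 and 1.28 CPM in control replicate 3, high replicate 2 and low replicate 2, where 0.0504 CPM is 1 count. Its rich libraries had 13.9, 17.1, 23.09 and 28.2 CPM in medium replicate 1, high replicate 1, high replicate 3 and low replicate 3 (log2 4.48, SE 0.59). The most abundant of the 4 was BCYRN1, the BC200 RNA of Alu origin, with 39.6 to 68.0 CPM in poor and 424 to 802 CPM in rich libraries (log2 3.47, SE 0.31). Their adjusted p-values were 1.22e-05 for RN7SL1 and BCYRN1 and 5.56e-05 for RMRP. Many near-identical copies of the 7SL, 7SK and Alu sequences lie elsewhere in the genome, so the assignment of reads to these 3 rows is uncertain. As a sum the listed RNA polymerase III RNAs took 0.0620% to 0.119% of counts outside the mitochondrial genome in rich and 0.00567% to 0.00912% in poor libraries. That share followed the 16S share with r = 0.977 and rho = 0.930 over 12 libraries (permutation p = 2e-05 and 3e-05, adjusted p = 5e-05 and 0.0001), and r = 0.938 without low replicate 3 and high replicate 3.

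Other stable small RNAs, the spliceosomal, nucleolar and Cajal body RNAs and the telomerase RNA, were higher for some members, at much lower levels. Of 31 listed, 8 had enough counts to test; 5 were higher, 0 were lower (0 also at an unadjusted p under 0.05, by DESeq2 and by limma voom) and the median log2 difference was 2.74. A row with few counts enters the test through the libraries where it is high, so neither count nor median speaks for the list, and the same holds for the 4 RNA polymerase III RNAs. SNORA73A (log2 -0.99), SNORD17 (log2 -0.21) and SNORA73B (log2 0.35) did not pass. Summed over all listed rows, these RNAs took 0.00233% to 0.00334% of counts outside the mitochondrial genome in rich and 0.000971% to 0.00144% in poor libraries. TERC, the template RNA of telomerase, had 0.0733, 0.202 and 0 CPM in control replicate 3, high replicate 2 and low replicate 2; a count of 0 in low replicate 2 allows up to 0.319 CPM. It had 1.31, 1.49, 2.95 and 2.69 CPM in medium replicate 1, high replicate 1, high replicate 3 and low replicate 3 (log2 4.13, SE 0.66, adjusted p = 0.000212). SNORD3A, the U3 RNA of precursor rRNA cleavage, was higher as well (log2 3.06, SE 0.60, adjusted p = 0.000871), as were the Cajal body RNAs SCARNA2 (log2 2.64) and SCARNA7 (log2 3.12). SCARNA7 rested on 1.04 to 2.58 CPM in rich and 0 to 0.293 CPM in poor libraries. On the log2(CPM + 1) scale, which understates low genes, TERC differed by 1.48, SCARNA2 by 1.17 and SCARNA7 by 1.06, all past the threshold in limma, and the list's median was 0.91. With a looser count filter that median was 1.44. By the reference's own transcript types, all 4 rows of type snRNA, all 6 of type ncRNA and 3 of 4 nuclear tRNA rows tested were higher. The 43 snoRNA rows were mixed, with 12 higher (27.9%), 7 lower (16.3%) and a median of -0.35. The 10 miRNA rows were mixed too, with 3 higher (30%), 4 lower (40%) and a median of -0.49. Among all genes tested 23.5% were higher and 22.7% lower. Most snoRNAs lie within introns of other genes. RNA45SN4, a row of the nuclear rRNA precursor that shares reads with its copies, was also higher (log2 2.73, SE 0.58), by 1.25 with log2(CPM + 1).

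**Figure D2:**
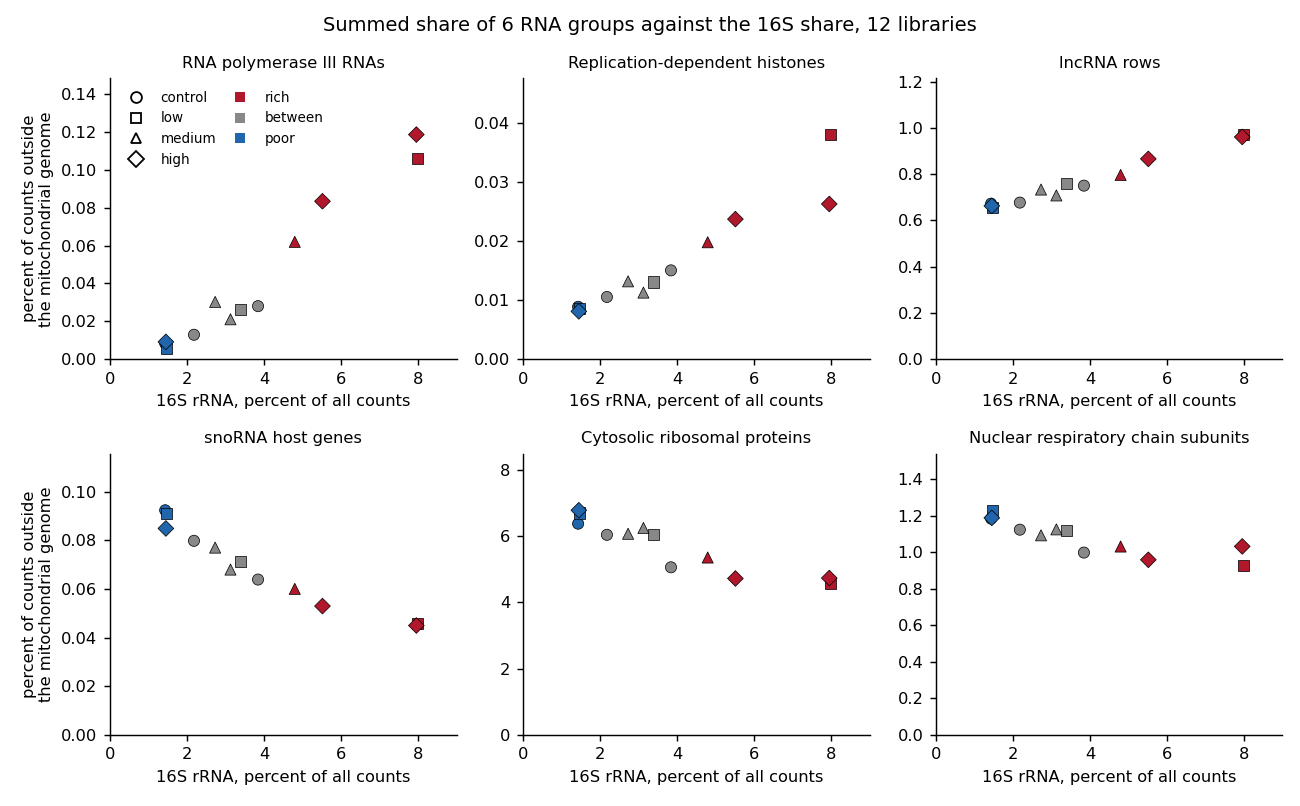
Summed share of 6 groups of nuclear genes, as percent of counts outside the mitochondrial genome, against 16S rRNA as percent of all counts in the 12 libraries; colour gives the class and symbol the concentration. The top panels rise (RNA polymerase III RNAs, replication-dependent histones, lncRNA rows) and the bottom panels fall (snoRNA hosts, ribosomal proteins, respiratory chain), with the libraries between the classes mostly in between. The lncRNA rows include BCYRN1, which is also in the RNA polymerase III panel, and snoRNA hosts such as SNHG5.

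Replication-dependent histone genes, which package new DNA in S phase, took a larger summed share of counts in rich than in poor libraries. Of 69 listed, 42 could be tested; 27 were higher, 1 was lower and 14 did not pass, and the median log2 difference was 1.57. A row enters the test with enough counts in any 3 libraries, which can all be rich. Neither the count nor the median of these 42 therefore speaks for the family. H4C3 was the most abundant, with 5.35 CPM in control replicate 3, 5.59 in high replicate 2 and 10.4 in low replicate 2. Its rich libraries had 61.7 in medium replicate 1, 68.5 in high replicate 1, 65.1 in high replicate 3 and 104 in low replicate 3. All 4 were far above the 3 poor libraries (log2 3.45, SE 0.34, adjusted p = 1.4e-05), and the libraries between had 17.4 to 47.8 CPM. H3C2, H4C1 and H3C12 were higher by 3.21, 3.20 and 2.74 on the log2 scale. With log2(CPM + 1) the values of H3C2 and H4C1 were 1.61 and 1.87, that of the linker histone H1-4 was 0.99, and the list's median was 0.86. Among linker histones H1-5 was higher (log2 2.30, adjusted p = 0.000719), with 3.93 to 6.67 CPM in rich and 0.659 to 1.36 CPM in poor libraries. H1-4 was higher too (log2 1.56, adjusted p = 0.0174) but its classes overlapped, and without control replicate 3 or low replicate 3 its adjusted p was 0.0705 or 0.0600.

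Some members of the family behaved otherwise. H2BC12, of which polyadenylated transcripts are known, was the 1 lower gene, with 7.99 to 9.93 CPM in rich and 11.4 to 13.3 CPM in poor libraries (log2 -0.45, SE 0.14, adjusted p = 0.0158; named after its value was seen). H2AC20 had 1.31 to 2.85 CPM in rich and 1.39 to 1.81 CPM in poor libraries and did not pass (log2 0.25, SE 0.43); the sign of its difference turned without high replicate 1 (log2 -0.03). As a sum the histone list took 0.0198% to 0.0380% of counts outside the mitochondrial genome in rich and 0.00807% to 0.00884% in poor libraries (two-sided exact permutation p = 0.0286, adjusted p = 0.0571 over 20 measures). Near-identical coding sequences within the family make the share of each gene uncertain. 

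The 3′ stem-loop that ends these mRNAs in place of a poly(A) tail is shown for genes at both ends of the range, because it is the feature that sets the family apart. The loop and its paired bases are in capitals, in the sense of the RNA, from the same transcripts.
H4C2 (chr6:26026896-26026921, minus strand): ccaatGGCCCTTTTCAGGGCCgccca
H4C5 (chr6:26204996-26205021, plus strand): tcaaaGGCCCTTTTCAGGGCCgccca
H2AC13 (chr6:27808642-27808667, plus strand): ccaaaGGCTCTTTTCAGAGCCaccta
H2AC8 (chr6:26217412-26217437, plus strand): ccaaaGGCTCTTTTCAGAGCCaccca
H2BC9 (chr6:26252050-26252075, plus strand): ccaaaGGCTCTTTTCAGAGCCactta
H4C15 (chr1:149860764-149860789, minus strand): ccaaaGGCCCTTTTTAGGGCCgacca
In rich against poor libraries these genes had log2 differences of 3.20 (H4C2), 1.95 (H4C5), 2.03 (H2AC13), 1.63 (H2AC8), 0.84 (H2BC9) and 0.04 (H4C15, which did not pass). The stem-loop pattern was searched on the sense strand of 1 transcript per gene and was found in 16 of the 40 tested histone genes with a transcript in the release. Many annotated histone transcripts end before it. Over all 9958 tested protein-coding genes whose own symbol has a sequence, 18 (0.181%) held it.

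Replacement histones, whose mRNAs are polyadenylated in all phases of the cell cycle, were lower or did not pass. Of 11 listed, 9 were tested and 4 of these were lower (44.4%, against 22.7% of all genes), with a median of -0.32. Another 0 were higher (against 23.5% of all genes), 0 also at an unadjusted p under 0.05, by DESeq2 and by limma voom. H2AZ2, a variant of H2A at promoters, had 135.8, 128.7 and 133.5 CPM in control replicate 3, high replicate 2 and low replicate 2. It had 98.0, 89.1, 83.7 and 75.9 CPM in medium replicate 1, high replicate 1, high replicate 3 and low replicate 3 (log2 -0.60, SE 0.07, adjusted p = 3.18e-05). H2AZ1, H3-3A and MACROH2A1 were lower by 0.37, 0.32 and 0.23 on the log2 scale. The 5 that did not pass included H3-3B (log2 0.002), H2AJ (log2 0.008) and CENPA (log2 0.13). Of 12 genes that process histone mRNA, 2 were higher (16.7%) and 5 lower (41.7%), against 23.5% and 22.7% of all genes, with a median of -0.11. NPAT, the activator of histone transcription, was higher (log2 0.51), as was SLBP, which binds the stem-loop (log2 0.28). UPF1, needed for the decay of histone mRNA, was lower (log2 -0.43).

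Long noncoding RNAs were higher more often than lower. Among 1132 lncRNA rows tested 356 were higher and 102 lower with a median log2 difference of 0.40, against 2372 higher and 2571 lower of 10472 protein-coding genes with a median of -0.01. Levels were not matched between these types, and a row with few counts can enter the test through the rich libraries. In the lowest decile of mean level, 122 protein-coding genes were higher and 36 lower with a median of 0.18. In the highest decile 316 were higher and 431 lower with a median of -0.07. The 677 lncRNAs with no exon base shared with another gene had 211 higher, 67 lower and a median of 0.39. As a sum, lncRNA rows took 0.899% ± 0.083 of counts outside the mitochondrial genome in rich (SD, n = 4) and 0.664% ± 0.009 in poor libraries (SD, n = 3). The classes did not overlap (two-sided exact permutation p = 0.0571, adjusted p = 0.0879). That sum and the 1132 rows include BCYRN1, with a mean of 618 CPM in rich and 55.4 CPM in poor libraries. They also include snoRNA hosts such as SNHG5, so these groups are not separate. NEAT1, the scaffold of nuclear paraspeckles, had 4.69 CPM in control replicate 3, 4.44 in high replicate 2 and 2.87 in low replicate 2. It had 21.1 in medium replicate 1, 27.4 in high replicate 1, 39.6 in high replicate 3 and 34.5 in low replicate 3 (log2 2.92, SE 0.42, adjusted p = 0.000105). Its libraries between the classes did not stay between, with up to 31.6 CPM in control replicate 1. MALAT1, the RNA of nuclear speckles (log2 2.88, SE 0.28), shares 82.1% of its exon bases with an annotated neighbour, so its reads cannot be told apart from that row's without strand. KCNQ1OT1, an RNA retained on chromatin, was higher (log2 2.27). TUG1, on the list of long noncoding RNAs, was lower (log2 -0.42, adjusted p = 0.000905). Its type in the reference is protein-coding, so it is not among the 1132 lncRNA rows.

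The spliced host genes of snoRNAs stood at the other end. Their mature transcripts carry a poly(A) tail and are mostly degraded soon after export. Of 18 listed, 17 were tested, 14 were lower (82.4%, against 22.7% of all genes) and 1, SNHG7, was higher (log2 0.52), with a median of -1.07. SNHG5 had 42.3 CPM in control replicate 3, 38.3 in high replicate 2 and 57.1 in low replicate 2. It had 19.2 in medium replicate 1, 14.8 in high replicate 1, 12.3 in high replicate 3 and 11.1 in low replicate 3 (log2 -1.66, SE 0.18, adjusted p = 2.01e-05). SNHG8 and SNHG29 were lower by 1.64 and 1.19 on the log2 scale. As a sum the hosts fell from 0.0895% ± 0.0040 of counts outside the mitochondrial genome in poor (SD, n = 3) to 0.0509% ± 0.0071 in rich libraries (SD, n = 4), with r = -0.963 and rho = -0.979 against the 16S share over 12 libraries (permutation p = 1e-05 and 2e-05, adjusted p = 3e-05 and 8e-05), and r = -0.974 without low replicate 3 and high replicate 3.

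**Figure D3:**
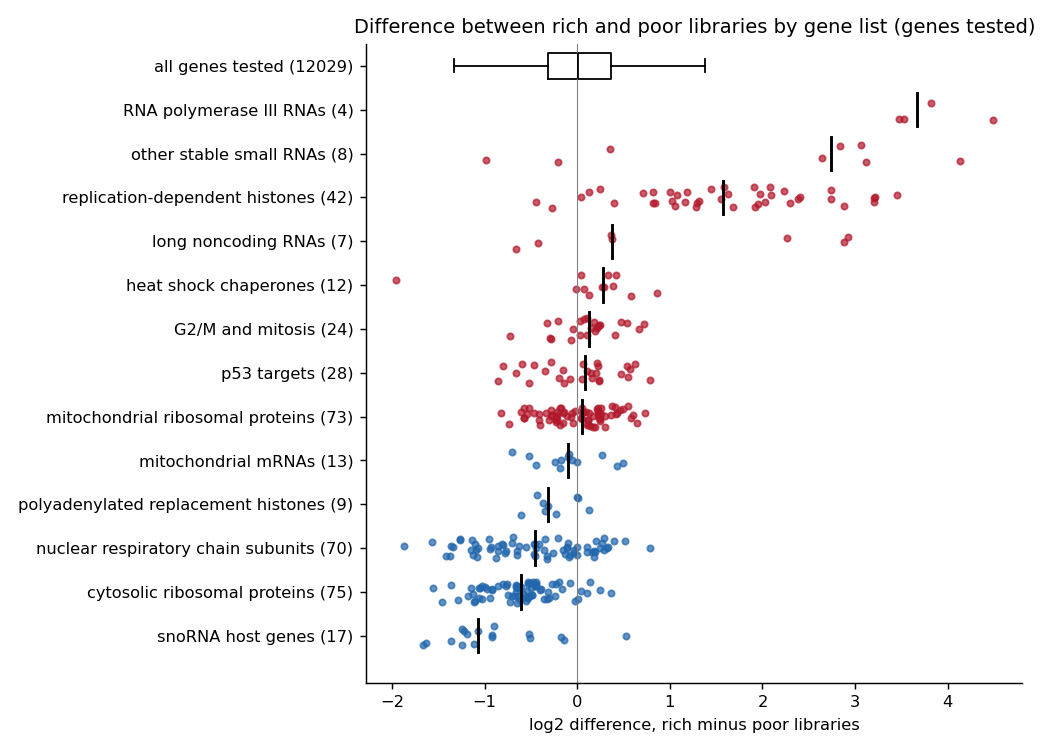
Log2 difference between rich and poor libraries for each tested gene of 13 lists (points, with the median as a black line; number of genes in brackets) and for all 12029 genes (box of the middle 50%, whiskers to 1.5 times that range). RNA polymerase III RNAs have a median of 3.67, snoRNA host genes of -1.07, and all genes of 0.01. Rows with few counts can have entered through the rich libraries.

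Cytosolic ribosomal protein genes, whose mRNAs are short, abundant and stable, were lower in rich libraries. Of 79 listed, 75 were tested, 62 (82.7%, against 22.7% of all genes) were lower, 0 were higher (0 also at an unadjusted p under 0.05, by DESeq2 and by limma voom) and 13 did not pass, with a median log2 difference of -0.61. RPL12, a subunit of the ribosomal stalk base, had 1103 CPM in control replicate 3, 1131 in high replicate 2 and 1227 in low replicate 2. It had 649 in medium replicate 1, 520 in high replicate 1, 457 in high replicate 3 and 473 in low replicate 3. No library crossed between the classes (log2 -1.13, SE 0.11, adjusted p = 1.22e-05), and the libraries between had 762 to 986 CPM. RPS20, RPS15 and RPL27A were lower by 1.17, 1.10 and 1.03 on the log2 scale. RPS29, whose gene overlaps 7SL sequence, did not pass (log2 0.11, SE 0.13); without control replicate 3 the value was -0.02. Summed over the list, these mRNAs took 4.84% ± 0.35 of counts outside the mitochondrial genome in rich (SD, n = 4) and 6.61% ± 0.21 in poor libraries (SD, n = 3), without overlap (two-sided exact permutation p = 0.0286, adjusted p = 0.0571). Processed pseudogenes of this family are many, and how reads with several alignments were counted is not given in the sources used here.

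Nuclear genes of the respiratory chain and ATP synthase were also lower on balance, with 39 lower (55.7%), 9 higher (12.9%) and 22 not called of 70 tested and a median of -0.45. Those lower included UQCR10 of complex III (log2 -1.08), COX4I1 of complex IV (log2 -0.81) and the membrane ring subunits ATP5MC1 (log2 -1.11) and ATP5MC2 (log2 -1.27) of ATP synthase. Among the 9 higher were NDUFV1 of complex I (log2 0.52, adjusted p = 0.00127) and SDHA of complex II (log2 0.40, adjusted p = 0.000617). The catalytic core of ATP synthase, ATP5F1A and ATP5F1B, was lower (log2 -0.33 and -0.26). These 4 were named after their values were seen. Mitochondrial ribosomal protein genes, whose products bind the 12S and 16S rRNA, showed no common direction: 23 were higher (31.5%), 21 lower (28.8%) and 29 not called of 73, with a median of 0.05. MRPL17 and MRPS5 were higher (log2 0.74 and 0.64) and MRPS27 and MRPS16 lower (log2 -0.82 and -0.57). Genes of mitochondrial transcription and RNA turnover were just as mixed, with 7 higher (21.2%), 10 lower (30.3%) and a median of 0.01 over 33. POLRMT, the mitochondrial RNA polymerase, was higher (log2 0.60, SE 0.09, adjusted p = 0.000116), and SUPV3L1, the helicase of the mitochondrial RNA degradosome, was lower (log2 -1.14, SE 0.14, adjusted p = 3.74e-05). LRPPRC, which stabilises mitochondrial mRNAs, was lower as well (log2 -0.40).

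Among the 10 genes with the smallest p-values in each direction, the higher ones held RN7SK, RN7SL1, BCYRN1 and LOC101927080 (log2 3.19), a row with no type in the reference, beside protein-coding genes with differences near 2-fold. MPHOSPH8, a reader of histone H3 methylation, had 47.5, 47.4 and 48.7 CPM in control replicate 3, high replicate 2 and low replicate 2, and 116.3, 120.1, 136.8 and 149.8 CPM in medium replicate 1, high replicate 1, high replicate 3 and low replicate 3. The classes did not overlap (log2 1.46, SE 0.13), but 36.1% of its exon bases are shared with another gene. LRRFIP1 (log2 1.22), ZNF766 (log2 1.12), TAF3 of the general factor TFIID (log2 1.02), the splicing factor LUC7L3 (log2 1.02) and MRGBP of an acetyltransferase complex (log2 0.98) completed these. Their adjusted p was 1.22e-05 in each case.

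The 10 lower genes were mostly short mRNAs, which by exon length does not hold for lower genes at large. Over all called protein-coding genes the median exon length was 4651 bases in lower and 3953.5 bases in higher genes. Median coding length ran the other way, with 1224 bases in lower and 1437 bases in higher genes. SERF2, a small protein that promotes amyloid formation, had the smallest p of all, with 91.8 CPM in control replicate 3, 91.5 in high replicate 2 and 78.2 in low replicate 2. It had 29.6 in medium replicate 1, 24.7 in high replicate 1, 24.6 in high replicate 3 and 20.8 in low replicate 3 (log2 -1.80, SE 0.12, adjusted p = 5.09e-06). SERF2 shares 49.3% of its exon bases with another gene. HSPB1, a small heat shock protein (log2 -1.96), WDR83OS (log2 -1.64), FKBP1A (log2 -1.40), the metallothionein MT2A (log2 -1.33), RPL12, POLR2G of RNA polymerase II (log2 -1.05), GSTP1, a glutathione transferase (log2 -0.90), BANF1 (log2 -0.77) and NQO1 (log2 -0.69) followed, each with an adjusted p of 1.22e-05.

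Length of the exons in the deposited table showed little steady trend with the difference. Across 10472 protein-coding genes, Spearman's rho between exon length and log2 difference was -0.05, and the genes are not independent replicates. The slope of log2 level on log2 exon length within each library was -0.003 ± 0.026 in rich (SD, n = 4) and 0.002 ± 0.008 in poor libraries (SD, n = 3) and overlapped (two-sided exact permutation p = 0.714). The median log2 difference was -0.06 in the decile with the shortest and -0.07 in that with the longest exons. It was highest in decile 3, at 0.12, with 30.0% of genes higher and 18.1% lower. In the shortest decile 19.3% were higher and 32.0% lower, and in the longest 18.5% and 25.5%. As a share of counts, the decile with the shortest exons, up to 1581 bases, took 9.93% ± 0.41 of counts outside the mitochondrial genome in rich and 11.96% ± 0.23 in poor libraries without overlap (two-sided exact permutation p = 0.0286, adjusted p = 0.0571), while the longest decile took 8.07% ± 0.29 and 8.04% ± 0.09 and overlapped (p = 0.886, exact). The 51 ribosomal protein genes within the shortest decile took 2.98% in rich and 4.27% in poor libraries, and without them it took 6.95% ± 0.26 and 7.68% ± 0.09 (not tested).

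Parts of the transcript differed in their relation. For 99.2% of the protein-coding genes tested, the longest protein-coding transcript of GENCODE release 29 gave the coding length, the length of the 3′ untranslated region and the GC content. The decile with the shortest coding sequence, up to 507 bases, had a median log2 difference of -0.21 over 1039 genes. In it 138 were higher (13.3%) and 415 lower (39.9%), against 22.7% and 24.6% of all protein-coding genes. Without ribosomal protein, respiratory chain and histone genes, the other 905 had a median of -0.20 with 113 higher and 339 lower; the 98 ribosomal protein and respiratory chain genes within it had -0.66. The median fell from 0.14 in the decile with the shortest 3′ untranslated region to -0.14 in decile 8 and -0.11 in the last (rho -0.16 across 10384 genes). Genes called higher had a median 3′ untranslated region of 970.5 bases and those called lower one of 1809 bases. By GC content of the transcript, the median rose from -0.09 in the lowest decile to 0.19 in the highest (rho 0.15), and the median GC was 51.1% in higher and 45.7% in lower genes. GC and 3′ length are tied to each other: within the highest tertile of GC the median was 0.12 for short and 0.04 for long 3′ regions, and within the lowest tertile 0.12 and -0.18. Relative to the mean of all libraries, the highest GC decile had medians of -0.03 in high replicate 1 and 0.05 to 0.13 in other rich libraries. In high replicate 1 the shortest and longest 3′ deciles, at -0.01 and 0.02, also ran against the other rich libraries. The lowest GC decile overlapped between the classes. GC weighted by counts was 49.3% ± 0.17 in rich (SD, n = 4) and 49.1% ± 0.07 in poor libraries (SD, n = 3) and overlapped (two-sided exact permutation p = 0.143).

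**Figure D4:**
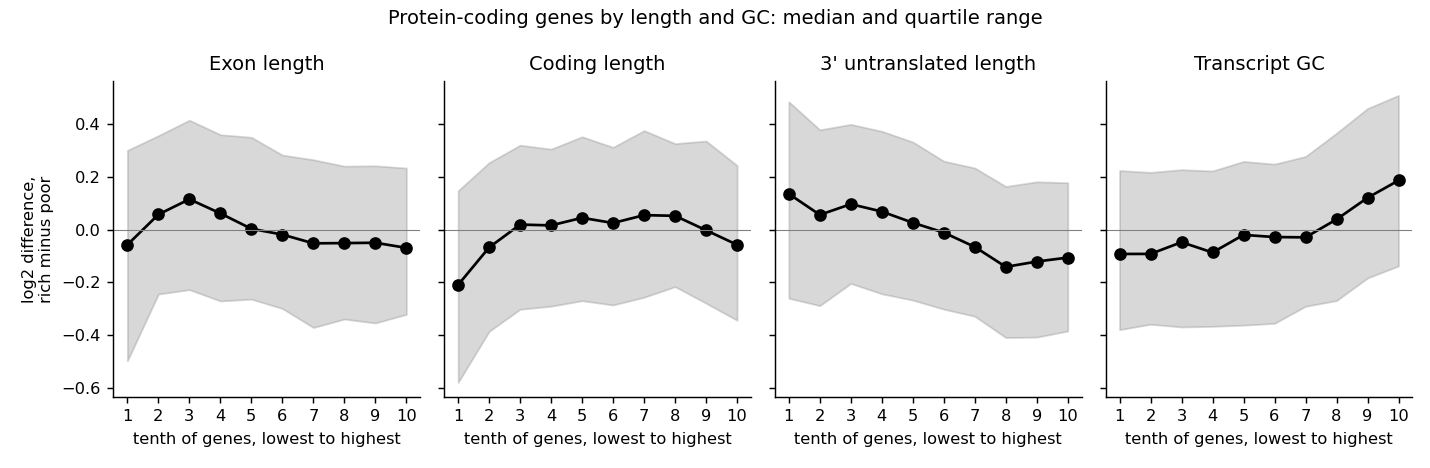
Median log2 difference between rich and poor libraries (line) and its middle 50% of genes (band) for protein-coding genes split in 10 equal parts by exon length, coding length, length of the 3′ untranslated region and GC content. The shortest coding decile is at -0.21, the shortest 3′ decile at 0.14 and the decile highest in GC at 0.19.

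Internal runs of A, on which oligo(dT) can anneal, were about as common in higher as in lower genes. A run of 8 or more A on the sense strand stood in 37.5% of the 2344 higher, 38.01% of the 2560 lower and 34.6% of the 5480 protein-coding genes not called, and in 36.1% of all. Their median transcript lengths were 3090 bases in higher, 3872 in lower and 3388 in genes not called. The percentages were not adjusted for length, and the part of such runs in capture was not tested. Genes with a single block of exons, outside the histone list, had a median of 0.14, with 45 higher and 31 lower of 155.

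Lists on cell state were described in the same way, since 3-methylcholanthrene damages DNA and activates the aryl hydrocarbon receptor (AHR). Of 28 p53 target genes tested 8 were higher (28.6%) and 9 lower (32.1%), with a median of 0.08. Among all genes tested 23.5% were higher and 22.7% lower, so these counts are near the background. XPC, a damage sensor of nucleotide excision repair (log2 0.54), and PHLDA3 (log2 0.57) were higher, while RPS27L (log2 -0.80) and AEN (log2 -0.60) were lower. CDKN1A, the p21 inhibitor of the cell cycle, passed narrowly (log2 0.23, SE 0.09, adjusted p = 0.0483) and did not pass without low replicate 2 (adjusted p = 0.177), nor without high replicate 1, control replicate 3, low replicate 3 or high replicate 3 (adjusted p = 0.0735 to 0.137). CYP1A1, the classical AHR target, was at 0 to 0.430 CPM in all 12 libraries and was not tested. NQO1, another target, had 181.4 to 184.2 CPM in poor and 98.9 to 122.3 CPM in rich libraries, and TIPARP did not pass (log2 -0.24, adjusted p = 0.0559).

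Replication genes had 8 higher (22.2%) and 11 lower (30.6%) of 36, against 23.5% and 22.7% of all genes, and a median of -0.04. CDT1, the licensing factor of replication origins, had 112.5, 115.1 and 113.4 CPM in control replicate 3, high replicate 2 and low replicate 2. It had 229.0, 230.1, 304.7 and 279.8 CPM in medium replicate 1, high replicate 1, high replicate 3 and low replicate 3 (log2 1.21, SE 0.14, adjusted p = 2.71e-05). CHAF1A, a histone chaperone of replication, was higher (log2 0.85), and CDC6 was lower (log2 -0.41). Of 24 mitotic genes 10 were higher (41.7%) and 5 lower (20.8%) with a median of 0.13. Those higher included CENPE (log2 0.72), TOP2A (log2 0.66) and AURKA (log2 0.54). Heat shock chaperones had 6 higher (50%) and 1 lower (8.33%) of 12 and a median of 0.28, led by DNAJB1 (log2 0.86), with HSPB1 as the lower one. Immediate early genes had 7 higher and 7 lower of 27 (25.9% each), ZFP36L1 at 0.76 and MYC at -0.88. Targets of ATF4 had 4 higher (22.2%) and 5 lower (27.8%) of 18, TRIB3 at 0.60 and MTHFD2 at -0.40. Both lists were near the background.

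The cells carried markers of B cells in both classes. Of 12 listed B-lineage genes 10 were tested, with 5 higher and 5 lower (50% each, against 23.5% and 22.7% of all genes). PAX5, the B-cell identity factor, had 485 to 499 CPM in poor and 652 to 828 CPM in rich libraries (log2 0.58). CD74, the invariant chain of class II antigen presentation, had 1408 to 1524 CPM in poor and 484 to 818 CPM in rich libraries (log2 -1.22). As a sum, B-lineage markers took 0.297% to 0.318% of counts outside the mitochondrial genome in rich and 0.374% to 0.410% in poor libraries. Markers of T or NK cells took at most 0.00104%, of myeloid cells at most 0.00472% and of erythroid cells at most 0.000346% in any rich or poor library. Markers of fibroblasts or epithelia took 0.0146% to 0.0182% in rich and 0.0189% to 0.0192% in poor libraries, mostly from KRT8 (log2 -0.32). CD3G, CD8A, HBB, COL1A2 and EPCAM had no count in any library.

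The direction of the called genes was then read in libraries that the classes had left out. Control replicate 1 (16S share 3.84%) and control replicate 2 (2.18%) received no 3-methylcholanthrene. Of the 2828 higher genes 2343 (82.9%), and of the 2734 lower genes 2294 (83.9%), differed in the same direction between replicate 1 and replicate 2, with medians of 0.21 and -0.18 on the log2 scale. Over all 12029 genes, 49.8% were above 0. RNR1 differed by 0.89, the RNA polymerase III RNAs by a median of 0.91, snoRNA hosts by -0.47, ribosomal proteins by -0.35 and the histone list by 0.18. These 2 libraries entered the fit that gave the calls, as libraries between the classes. The pair also sets a replicate 1 against a replicate 2. Any step shared by replicates of a number cannot be told apart from the 16S share here. In medium replicate 3 against replicate 2, with 16S shares of 3.13% and 2.73%, 66.5% of the higher and 65.6% of the lower genes kept their direction, with medians of 0.07 and -0.06. The lists did not follow in that pair: the median was -0.16 for RNA polymerase III RNAs, -0.41 for the histone list and 0.07 for ribosomal proteins, while snoRNA hosts were at -0.22.

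**Figure D5:**
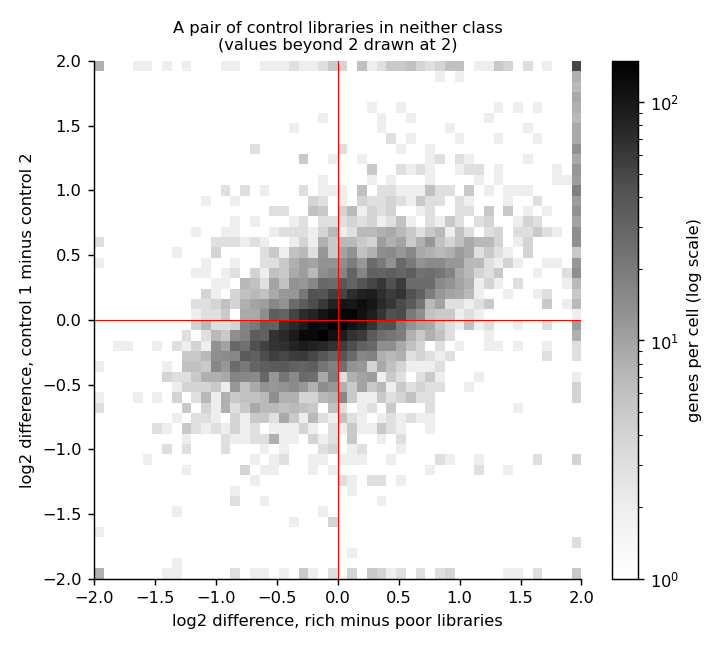
Log2 difference between control replicates 1 and 2, both between the classes, against the log2 difference between rich and poor libraries; shading gives the number of the 12029 genes per cell on a log scale, and values beyond 2 are drawn at 2. Genes higher in rich libraries are mostly above 0 in the control pair, and 82.9% of the 2828 called higher are.

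Within a concentration the same groups differed, although these libraries are the ones that made the classes and so give no independent value. Between low replicate 3 and low replicate 2 the median log2 difference was 4.15 for RNA polymerase III RNAs, 1.83 for the histone list, -1.29 for snoRNA hosts and -0.70 for ribosomal proteins. Between the mean of high replicates 1 and 3 and high replicate 2 it was 3.77, 1.44, -0.998 and -0.67. Tested rows of the RNA polymerase III and histone lists can have entered through the rich libraries, so their medians do not speak for these lists. The 13 mitochondrial mRNAs had 0.15 within low and -0.25 within high.

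Concentration was compared with and without the 16S share in the model. With concentration alone, edgeR's quasi-likelihood test called 0 of 12030 genes for low, medium or high against control (339, 238 and 375 at an unadjusted p under 0.05). The log2 of the 16S share as a covariate lowered the common dispersion, the squared spread between replicates, from 0.0553 to 0.0183, and the test then called 1 gene in low, 1 in medium and 2 in high (636, 530 and 493 at an unadjusted p under 0.05). GGNBP2_1, named after its values were seen, was among them at each concentration. It is a row with a copy elsewhere in the table, whose reads cannot be assigned with certainty.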

How the data were processed

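Per the labels' protocols, RNeasy Mini RNA was captured with a KAPA mRNA kit and sequenced on a DNBSEQ-G400RS as pairs of 150 nt reads. GRCh38.p14, featureCounts 2.0.6, HISAT2 2.2.1, fastp 0.23.4 and MultiQC 1.27 are named in the submitters' processing notes; how strand and multiply aligned reads were handled, and with which options, is not given in the sources used here. Raw counts were deposited by the authors for 50006 rows and 12 libraries, with CPM (count per 1000000 counts of the library) that equalled the same quotient of these counts within 5e-05 CPM. Of the values from 1 to 10, 68.7% were even.

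The members, lists and tests were chosen with earlier results of these data known. Counts were filtered with edgeR 4.0.16 filterByExpr on concentration, scaled with TMM and fitted with glmQLFit and glmQLFTest (R 4.3.3) over 12 libraries with 3 classes (rich, between, poor), contrast rich minus poor. A gene was called at a Benjamini-Hochberg adjusted p below 0.05; SE is the log2 difference divided by the root of F. The steps were tested on simulated data in which far fewer genes differed between the classes than were called here. That run does not cover a setting like this one. Shares per library were compared by two-sided exact permutation over 35 splits of 7 libraries (smallest p 0.0286, Benjamini-Hochberg over 20 measures), and related to the 16S share over 12 libraries with 100000 permutations. Intervals and floors (3 counts) cover counting error only. Text names the 10 called genes of smallest p per direction, up to 4 of smallest p per list and 17 fixed genes. Transcript lengths, GC and sequences came from GENCODE release 29 on GRCh38, and gene types from RefSeq GRCh38.p14. Genes with a copy (805 tested) have a duplicate row or lie on an alternate contig. Alternatives used DESeq2 1.42.0 and limma 3.58.1. Some genes and sequences are not reported here.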

Additional observations from a re-analysis of the deposited data

Results flagged for a closer look

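In 17 of 264 sets of 4 rich or 5 intermediate libraries, the highest or lowest library stood apart from the others. Its gap passed Dixon's 95% limit, which is 0.829 of the range for 4 libraries and 0.710 for 5. For genes the gap was taken on log2 TMM-scaled CPM, so the unscaled CPM printed below need not pass that limit. Chance flags about 1 in 20. Control replicate 1 was low among the intermediate libraries for the ribosomal protein share (5.05% of counts outside the mitochondrial genome, others 6.03% to 6.24%), the respiratory chain share (0.998%, others 1.09% to 1.12%) and the shortest exon decile (10.1%, others 11.1% to 11.5%). It was also low for POLR2G (54.3 CPM, others 59.7 to 64.6), ATP5MC1 (175 CPM, others 228 to 256) and ATP5MC2 (81.8 CPM, others 118 to 132). This library had the highest 16S share of those 5. Control replicate 2, with the lowest, was low for TRNP (56.0 CPM, others 69.4 to 71.5) and high for SNHG4 (82.1 CPM, others 69.2 to 73.1) and TIPARP (42.2 CPM, others 31.3 to 32.5).

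Among the rich libraries, medium replicate 1, with the lowest 16S share, was low for ND6 (965 CPM, others 1238 to 1294) and high for ATP5MC1 (160 CPM, others 125 to 132). Low replicate 3 was high for H1-5 (6.67 CPM, others 3.93 to 4.20). High replicate 3 was low for ND4 (15859 CPM, others 17079 to 17969) and high for CST3 (19.5 CPM, others 13.7 to 14.98) and CSF1R (4.34 CPM, others 2.29 to 2.58). High replicate 1 was high for SCARNA7 (2.58 CPM, others 1.04 to 1.09) and low for NKG7 (2.98 CPM, others 4.08 to 4.30).

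A test of whether the relation to the 16S share differs between concentrations, added after seeing the data, called 8 of 12030 genes (313 at an unadjusted p under 0.05) with 4 residual degrees of freedom. Their adjusted p in edgeR's quasi-likelihood test was 0.000681 for PAK1IP1_1, 0.00982 for PFDN5, 0.0213 for ASMTL_1 and CPSF1_1, 0.0237 for PSME2, 0.0332 for SLC25A6_1, 0.0397 for AGPAT5_1 and 0.0399 for OSGEP. All 8 have a copy in the table, so their reads cannot be assigned with certainty.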

How the results depend on the processing

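Beyond RNR2, edgeR called 2828 higher and 2734 lower genes. Each of the 44 alternative counts lay within 1.5 times of these, from 2524 to 3202 higher and 2464 to 3123 lower outside the replicate block, and from 2275 to 2829 and 2199 to 2825 with each rich or poor library left out. With the replicate number as a block the counts were 1922 and 1973; 8 of 18 same-numbered pairs deviated with a correlation over 0.1 (range -0.38 to 0.58), and 6 of 12 libraries correlated best with their own number, a hint from the data. Not every pair passed 0.1 and the labels name no shared batch, so the numbers were not taken as pairs, although they are tied to the 16S share. Of 101 called genes named by the rule, 94 kept their direction and their call in every alternative that could fit them; the others were CDKN1A, CPSF2, CSF1R, H1-4, ND3, ND4L and NKG7. Among genes that did not pass, the sign turned for CYTB with the 16S share as a continuous variable (0.0096), RPS29 with that share and concentration (-0.0040), and H2AC20 (-0.28) and HBG2 (0.012) with the replicate block. With libraries left out they ranged from -0.22 to 0.022 (ND1), -0.14 to 0.055 (CYTB), -0.026 to 0.38 (H2AC20) and -0.019 to 0.26 (RPS29). The causes were not tested.

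List medians held their sign in every alternative for snoRNA hosts, ribosomal proteins and respiratory chain subunits. The medians of RNA polymerase III RNAs and replication-dependent histones did so too, but their tested rows can have entered through the rich libraries. A steady sign there does not speak for these lists. The medians of replication-dependent histones (0.86) and other stable small RNAs (0.91) were lowest with limma on log2(CPM + 1), since the added 1 shrinks low levels. With stricter filtering fewer were tested.

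Summed shares are differences, rich minus poor, in percentage points. Within low they were 0.873 for 12S, 0.0950 for mitochondrial mRNAs, 0.0294 for replication-dependent histones, -0.0375 for replacement histones, 0.0175 for the long noncoding RNA list, -0.0455 for snoRNA hosts, -2.13 for ribosomal proteins, -0.303 for respiratory chain subunits, 0.316 for lncRNA rows and 0.402 for GC; the 12S to 16S ratio differed by 0.0134 and component 1 by 88.9. Within high they were -2.87 for mitochondrial mRNAs, 0.00229 for other small RNAs, -0.0141 for replacement histones, -0.0338 for rows with a copy and -0.0190 for GC, and the ratio differed by -0.0170. With all counts as denominator they were 0.00132 for other small RNAs, 0.00905 for the long noncoding RNA list, 0.00932 for mitochondrial ribosomal proteins, 0.156 for lncRNA rows, -0.0571 for rows with a copy and -0.323 for the longest exon decile. Called genes against control with the 16S covariate, added after seeing the data, were 1 (low), 1 (medium) and 2 (high). Depth limits rows with few counts, such as TERC with 0 to 4 counts in each poor library.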
